A study of Mus musculus with 4 samples.

Results

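The Serpin genes, which encode the serpin superfamily of protease inhibitors and their relatives, were read from whole-genome arrays of mouse liver and spleen. Members were all non-control probes whose gene name in the scanner files starts with Serpin, and each gene was represented by its brightest probe. This gave 54 genes from 73 probes, of 27962 gene names on 41174 probes in all. The letter after Serpin names the clade, with 20 genes in clade A, 24 in clade B and 10 in clades C to I.

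Male C57BL/6J mice aged 13 weeks received for 4 weeks either a purified low-nucleoprotein diet (low NP, with 0.03% nucleic acids) or that diet with 1.2% nucleoprotein added (NP, with 0.5% nucleic acids). RNA was pooled by diet and tissue, which makes 4 pools. The labels do not say how many mice a pool holds. Both pools of a tissue were hybridised together on 2 arrays, of which array 1 carried the NP pool in Cy5 and array 2 the reverse.

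Since the arrays of a tissue appear to repeat its pools with the dyes exchanged, they were counted as 1 replicate per diet and tissue. No test of the diet was therefore run and no p-value is given. Whether each array had pools of its own is not settled by the labels. Ratios are log2 values of NP over low NP, a direction opposite to that of the deposited value table. The figure behind ± tells how far each array lies from the mean of both. It covers technical error and, if the arrays had pools of their own, any difference between those pools. A gene counts as measured in a tissue if each of the arrays flagged its probe as well above background in 1 dye or more. It counts as called if each array gave a change of 1.5-fold (0.585 on the log2 scale) or more, in one direction. Levels are normalized log2 signals of a probe, and are compared between pools for the same probe only.

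Most serpins trap a protease by offering it a reactive centre loop as bait: cleavage flips the loop into the body of the inhibitor and locks the enzyme in place. The liver secretes many members of clades A, C, D, F and G into plasma, where they restrain coagulation, fibrinolysis, complement and neutrophil proteases, or carry hormones. Clade B serpins mostly stay inside cells, above all leukocytes and epithelia, and guard them against their own granule proteases.

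Promoter sequence of antitrypsin genes is shown because these genes lie side by side, are near copies of each other, and had among the largest ratios in spleen. Each line gives a window of 100 bases upstream of the annotated start, in RefSeq GRCm38.p6, 5′ to 3′ on the gene's strand. Capitals mark GTTAAT, the core of the sites bound by hepatocyte nuclear factor 1. The windows are chr12:103738200-103738299, chr12:103773634-103773733, chr12:103956960-103957059 and, for Serpina7 outside that cluster, chrX:139085278-139085377, all on the minus strand.
Serpina1b: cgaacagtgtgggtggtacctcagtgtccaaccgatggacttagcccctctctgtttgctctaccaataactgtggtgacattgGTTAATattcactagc
Serpina1d: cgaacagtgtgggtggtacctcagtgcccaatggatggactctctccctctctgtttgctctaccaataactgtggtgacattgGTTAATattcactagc
Serpina1e: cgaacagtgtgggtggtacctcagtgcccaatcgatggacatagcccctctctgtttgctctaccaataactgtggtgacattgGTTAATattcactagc
Serpina7: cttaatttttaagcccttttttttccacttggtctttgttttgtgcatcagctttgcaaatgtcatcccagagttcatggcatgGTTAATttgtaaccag

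The 3 antitrypsin windows were 93.0% to 97.0% identical. The Serpina7 window matched them at 29.0% to 30.0% of positions. The motif lay 26 bases before the annotated start of Serpina1b, 16 before that of Serpina1d and 78 before that of Serpina1e. For Serpina7 it lay 74 bases before the annotated start used here and 57 before another.

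Of the 54 members, 44 had a promoter in the RefSeq table, and the 250 bases before the start were searched on both strands for 4 motifs picked after a first look at these data. A gene was counted if any of its promoters held the motif. GTTAAT was present in 7.49% of 27025 genes and in 9 of the 44 members. It was found in 5 of 12 members whose level in the NP pools was at least 2-fold higher in liver, in 0 of 9 with a level at least 2-fold higher in spleen, and in 4 of the 23 others. TTGCNNAA, a form of the motif of C/EBP factors, was in 10.8% of genes and in 12 members, namely 5 of the 12, 0 of the 9 and 7 of the 23. TATAAA, the TATA box, was in 14.3% of genes and in 14 members, namely 2 of the 12, 1 of the 9 and 11 of the 23. GGGCGG, the GC box, was in 35.4% of genes and in 7 members, namely 1 of the 12, 4 of the 9 and 2 of the 23. A match shows only that these letters occur in the window, and near copies such as the antitrypsin genes are not separate observations.

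Probes of members that the results turn on are given next, as the array files hold them, 5′ to 3′, with no part capitalised. They show which stretch of each transcript was read. In mm7, the build of the array files, the 60 bases of the Serpina1b probe span chr12:101224607-101226106 and those of the Serping1 probe chr2:84609527-84611033, which is 1500 and 1507 bases of genome. The Serpina1e probe lies in one block at chr12:101445204-101445263 and the Serpinb1a probe at chr13:32208400-32208459.
Serpina1b: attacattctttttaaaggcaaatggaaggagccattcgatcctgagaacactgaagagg
Serpina1e: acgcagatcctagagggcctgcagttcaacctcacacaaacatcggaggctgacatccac
Serpinb1a: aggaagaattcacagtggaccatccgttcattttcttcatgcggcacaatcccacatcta
Serping1: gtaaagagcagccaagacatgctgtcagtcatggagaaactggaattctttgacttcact

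Detection split the clades. In liver 37 members were measured and in spleen 39, the additional ones being Serpinb2 and Serpinb7, an inhibitor of plasminogen activators and its relative megsin. The 15 members measured in neither tissue were 4 of clade A (Serpina1f, Serpina3a, Serpina3b, Serpina5) and 11 of clade B. The latter include Serpinb5 (maspin), Serpinb12, Serpinb13 and the Serpinb3a, Serpinb3b and Serpinb3d copies, best known from epithelia, and 4 of the Serpinb9 copies. All 10 members of clades C to I were measured in both tissues. Spleen array 1 stood apart in this respect, with 93.1% of all probes well above background in the low-NP channel and 94.7% in the NP channel, against 58.6% to 67.5% on the other arrays.

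The first comparison asked which spleen transcripts differed between the diets. Most measured members of clade A and several of clades C to I, among them antithrombin and the antitrypsin copies, were lower in the NP spleen pool, and no member of clade B was called. Of 39 measured members 18 were called lower and 0 higher, against 6.33% of 18568 genes called lower and 0.0431% called higher in spleen as a whole. The 18 comprise 12 of 16 measured members of clade A and 6 of 10 of clades C to I, with 0 of 13 of clade B. The family's median ratio was -0.25, at -0.24 on array 1 and -0.50 on array 2, while the median of all genes was -0.02. By clade the medians were -2.18 in clade A, 0.07 in clade B and -1.43 in clades C to I. The clade A median was -1.46 on array 1 and -2.93 on array 2, and reached -3.62 with the scanner's ratios and -3.63 with the deposited value table. The clade B median turned to -0.06 when loess was replaced by centring on the median. Without array 1 Serpina9 would join the lower genes, and the family's median would be -0.50.

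**Figure D1:**
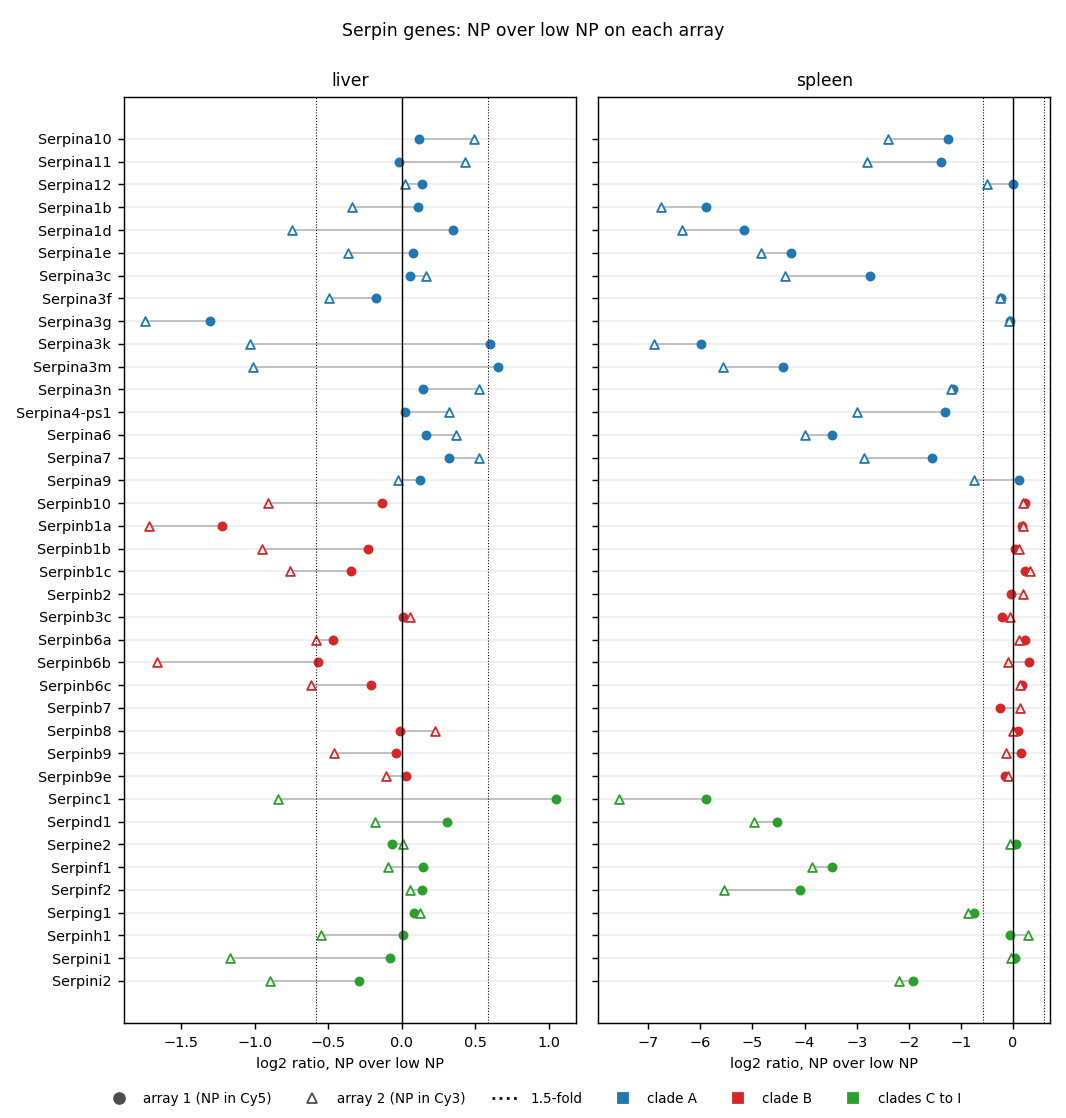
Log2 ratio of NP over low NP for the measured Serpin genes reported here in liver (left) and spleen (right), with a filled circle for array 1, an open triangle for array 2, and dotted lines at 1.5-fold. The axes differ in range. In spleen 18 genes lie left of the dotted line on both arrays, while in liver 2 do, and the bars of Serpinc1, Serpina3k and Serpina3m cross the liver zero line.

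Inhibitors of coagulation and fibrinolysis were among the called genes. Serpinc1 encodes antithrombin, the main inhibitor of thrombin and factor Xa. Its ratio in spleen was -5.88 on array 1 and -7.57 on array 2, a mean of -6.73 ± 0.84, or 106-fold lower in the NP pool. Its level was 10.19 and 8.50 in NP spleen against 16.08 and 16.06 in low-NP spleen. A further Serpinc1 probe gave -3.58 and -5.17, so the direction was shared but the size was not. Serpind1, heparin cofactor II, had ratios of -4.53 and -4.96, with levels of 9.39 and 9.05 in NP spleen and 13.92 and 14.02 in low-NP spleen. Serpinf2, the inhibitor of plasmin, had ratios of -4.08 and -5.54. Serpina10, which inhibits factor Xa with protein Z as cofactor, was lower at -1.24 and -2.40. Its levels were low, at 7.53 and 7.36 in NP spleen and 8.77 and 9.76 in low-NP spleen. Its other probe, however, gave -0.22 and -1.54 and was not called.

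The measured antitrypsin copies, Serpina1b, Serpina1d and Serpina1e, were all lower in spleen on both arrays. Serpina1b had ratios of -5.90 and -6.75, an 80.2-fold gap, with levels of 10.44 and 9.24 in NP spleen and 16.33 and 15.99 in low-NP spleen. Serpina1d had -5.17 and -6.35, with 1 saturated low-NP spot on array 2. Serpina1e had -4.26 and -4.84. Whether a probe for one copy also reads another was not tested.

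The Serpina3 cluster, which expanded in mice from an antichymotrypsin gene, did not move as one. Serpina3k reached -5.99 and -6.89, an 86.7-fold gap, and its other probe gave -4.07 and -4.69. Serpina3m reached -4.41 and -5.56, and Serpina3c -2.74 and -4.38. Serpina3n, an acute-phase member that inhibits granzyme B, was lower by less, at -1.15 and -1.19. The remaining measured members of the cluster were not called. Serpina3g, an inhibitor of cathepsins inside leukocytes, had ratios of -0.06 and -0.08, and Serpina3f had -0.24 and -0.25. Serpina3f was the nearest to the threshold among members that were lower on both arrays and not called.

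Hormone carriers and other secreted members were lower too. Serpina6, corticosteroid-binding globulin, had ratios of -3.48 and -3.98, with levels of 9.14 and 8.77 in NP spleen and 12.62 and 12.75 in low-NP spleen. Serpina7, thyroxine-binding globulin, had -1.55 and -2.86. Its NP channel was well above background on 1 array only, as was that of Serpina4-ps1. Serpinf1, pigment epithelium-derived factor, had -3.47 and -3.86. Serping1, the C1 inhibitor of complement and the contact system, was the called member nearest the threshold at -0.75 and -0.86, or 1.75-fold. Of the other called clade A genes, Serpina11 had -1.37 and -2.80, and Serpina4-ps1, annotated as a transcribed pseudogene, -1.30 and -3.00. A further Serpina4-ps1 probe, at -0.24 and -2.52, was not called.

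Serpini2, or pancpin, is best known from the exocrine pancreas. Its ratio in spleen was -1.91 and -2.18, with levels of 11.01 and 10.85 in NP spleen against 12.93 and 13.03 in low-NP spleen. All 10 digestive enzyme genes listed as markers of the exocrine pancreas were called lower in both tissues, with median ratios of -2.13 in spleen and -1.03 in liver. In liver Serpini2 had -0.29 and -0.90, which did not pass the threshold. The part of pancreatic RNA in the Serpini2 values was not tested.

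Clade B genes of the spleen had ratios close to 0. They ranged from -0.14 for Serpinb3c to 0.28 for Serpinb1c, whose values of 0.24 and 0.32 were nearest the threshold on the upper side. Serpinb1a, an inhibitor of neutrophil elastase, cathepsin G and proteinase 3, had ratios of 0.18 ± 0.01, with levels of 14.99 and 15.09 in NP spleen and 14.81 and 14.90 in low-NP spleen. Serpinb9, the inhibitor that protects killer cells from granzyme B, had 0.01 ± 0.14. None of the clade B differences reached the threshold, and with pooled RNA the spread between mice is unknown.

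Serpine2, Serpinh1 and Serpini1 were near even in spleen as well. Serpine2, which inhibits thrombin and plasminogen activators at cell surfaces, had ratios of 0.06 and -0.07. Serpinh1, the collagen chaperone of the endoplasmic reticulum, had -0.06 and 0.29, and Serpini1, neuroserpin, 0.03 and -0.05. Serpina12, the adipokine vaspin, had 0.01 and -0.50, and Serpina9, described in germinal centre B cells, had 0.11 and -0.75, so that array 2 alone passed 1.5-fold for Serpina9.

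Markers of hepatocytes moved with the called serpins of the spleen. All 12 listed hepatocyte genes were called lower there, with a median ratio of -6.09. Their summed level (log2 of the summed signals) was 15.65 and 13.76 on the arrays of NP spleen, 20.56 and 20.14 in low-NP spleen, and between 20.19 and 20.91 in the liver pools. All 12 were flagged well above background in NP spleen on at least 1 array, and 10 on both. On spleen array 1 the flag was set for 94.7% of all probes in the NP channel, so passing there says little. In bulk RNA, fewer cells of a type and less RNA per cell cannot be told apart. The part of hepatocyte RNA in the serpin ratios was not tested.

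The next comparison asked the same of the liver, where few members were called. Of 37 measured members 2 were called lower and 0 higher, against 3.63% of 17100 genes called lower and 0.0702% called higher. The called genes were Serpina3g and Serpinb1a. The family's median ratio was -0.06, at 0.03 on array 1 and -0.34 on array 2, and it turned positive (0.02 to 0.06) under median centring, with the scanner's own ratios and in the deposited value table. The count of lower genes rose to 8 without background correction, and also to 8 with the scanner's ratios and with the deposited table. It was 13 on array 2 alone and 2 on array 1 alone, and array 1 alone also gave 3 higher genes.

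Serpinb1a had ratios of -1.22 and -1.72 in liver, a mean of -1.47 ± 0.25. Its level was 10.94 and 10.72 in NP liver and 12.16 and 12.44 in low-NP liver. Serpina3g had -1.30 and -1.75, with levels of 11.49 and 11.26 in NP liver and 12.80 and 13.01 in low-NP liver. Both genes were lower in NP liver on each array, and both had far higher levels in spleen, at 14.81 to 15.16 over all spleen channels. They kept their calls under all alternatives run.

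The rest of clade B leaned the same way without passing on both arrays. Of 11 measured clade B genes 9 had mean ratios below 0, and the clade's median was -0.52. Array 1 alone gave -0.21 and array 2 alone -0.62. Other scalings, and leaving out the background correction, gave medians from -0.81 to -0.45. Serpinb6b just missed the threshold at -0.57 and -1.66, as did Serpinb6a at -0.47 and -0.58, both of them copies related to the human placental thrombin inhibitor. Serpinb10, of haematopoietic cells, had -0.13 and -0.91. It was not well above background in NP liver on either array, and its mean low-NP level was 1.43-fold the signal measured there. Serpinb1b had -0.23 and -0.95, Serpinb1c -0.34 and -0.76, and Serpinb6c -0.21 and -0.62. For Serpinb10 and these 3 genes array 2 passed 1.5-fold and array 1 did not. A further Serpinb1c probe, also measured in liver, gave -0.07 and -0.03 there. Each of Serpinb10, Serpinb1b, Serpinb1c, Serpinb6b and Serpinb6c was called lower without background correction and with the scanner's ratios.

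Leukocyte markers moved with these genes in liver. Of the listed B cell genes 5 of 7 were called lower, of the T and NK cell genes 7 of 10, and of 8 measured neutrophil and myeloid genes 1. The summed B cell level was 12.06 and 11.26 in NP liver, 15.44 and 15.73 in low-NP liver, and 17.82 to 18.02 in the spleen pools. For the neutrophil and myeloid list it was 11.97 and 11.85 in NP liver and 13.04 and 13.34 in low-NP liver. S100a9 alone had mean levels of 10.76 in NP liver and 12.69 in low-NP liver. In NP liver 2 of the 7 B cell genes and 4 of the 9 neutrophil and myeloid genes were not well above background on either array. The part of leukocyte RNA in the clade B ratios was not tested.

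The plasma serpins that stood out in spleen had mean ratios close to even in liver, though several differed between the arrays. Serpina1b had 0.11 and -0.34, and Serpina1e 0.08 and -0.37. Serpina1d had 0.35 and -0.75, so that array 2 alone passed 1.5-fold. Clade A had a median of 0.07 and ranged up to 0.42 ± 0.10 for Serpina7. Serpina6 had 0.17 and 0.37, Serpinf2 0.14 and 0.06, Serping1 0.09 and 0.12, and Serpina3n 0.14 and 0.53, all above 0 on both arrays and none called. Serpinc1 (1.05 and -0.84), Serpina3k (0.60 and -1.03) and Serpina3m (0.66 and -1.01) passed 1.5-fold in opposite directions on the arrays, which differ in dye orientation and possibly in pools. The other Serpinc1 probe gave -0.27 and 0.36, and the other Serpina3k probe 0.36 and -0.45. The further Serpinc1 probe thus had the opposite pattern of signs. The mean over both arrays was 0.10 ± 0.95 for the Serpinc1 probe used. Serpini1 had -0.08 and -1.17, and Serpinh1 0.01 and -0.55, with the larger size on array 2. Serpind1 (0.31 and -0.18), Serpinf1 (0.15 and -0.09) and Serpine2 (-0.07 and 0.01) were within 1.5-fold on both arrays.

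**Figure D2:**
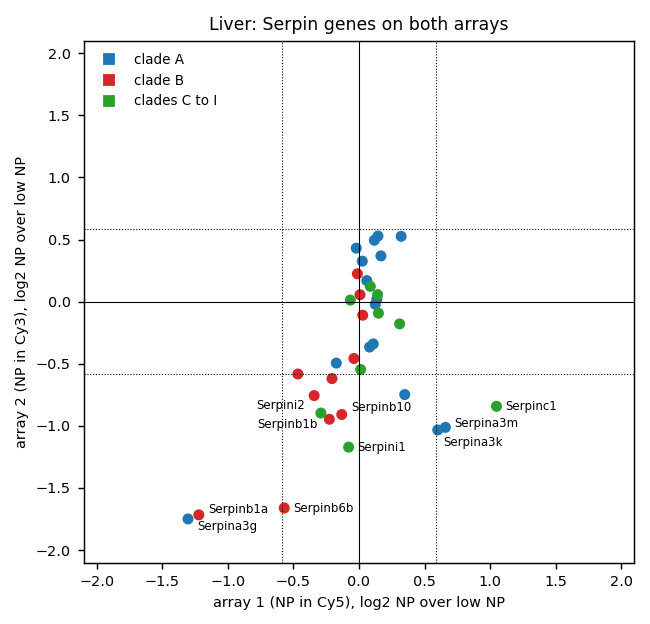
Log2 ratio of NP over low NP in liver on array 1 (horizontal) and array 2 (vertical), with 1 point per measured Serpin gene reported here, coloured by clade, and dotted lines at 1.5-fold. Serpina3g and Serpinb1a alone lie past both lower lines, Serpinc1, Serpina3k and Serpina3m sit at lower right with opposite signs on the arrays, and the clade B points mostly trail downward on array 2.

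Pool levels of the tissues were then set side by side within each diet, using channels of the same dye, and a gene was called when both dye-matched pairs differed at least 2-fold. Members called higher in NP liver came from clades A, C, D, F and G, and those called higher in NP spleen from clade B, with Serpina3g, Serpinh1 and Serpini1 as the others. Of 39 members compared 18 were higher in NP liver, against 14.0% of 18544 genes, and 10 were higher in NP spleen, against 15.0%. Between the low-NP pools 11 members were higher in liver, against 8.77% of 18658 genes, and 10 in spleen, against 9.41%. The NP pools of this comparison are those of the diet ratios, so the comparisons are not independent of each other.

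**Figure D3:**
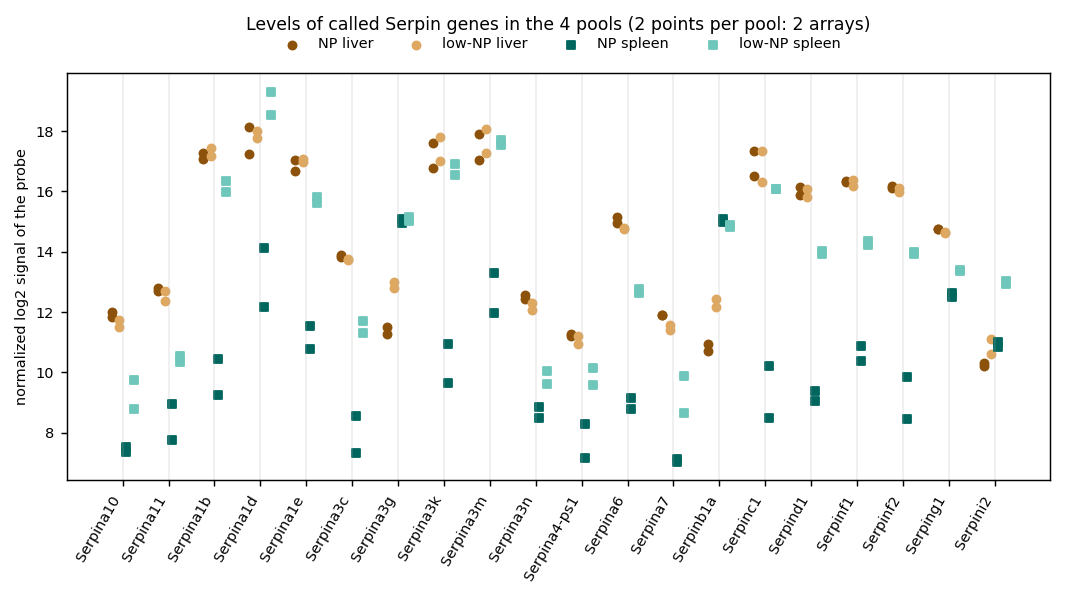
Normalized log2 signal of the 20 Serpin genes called in liver or spleen, in the NP liver, low-NP liver, NP spleen and low-NP spleen pools, with 1 point per array. For most clade A genes and Serpinc1, Serpind1, Serpinf1 and Serpinf2 the NP spleen points lie below those of the other pools, while Serpina3g and Serpinb1a are highest in both spleen pools and lowest in NP liver.

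Clade A had a median liver minus spleen difference of 4.50 in the NP pools and 1.17 in the low-NP pools. For Serpinc1 the difference was 7.58 ± 0.43 between the NP pools and 0.76 between the low-NP pools. The NP spleen level of Serpinc1 was thus 0.521% of that in NP liver, and the low-NP spleen level was 55.1% of it. For Serpina1b these shares were 0.616% and 49.4%, for Serpina6 1.48% and 19.6%, and for Serpinf2 0.781% and 22.0%. Serpina1d had a low-NP spleen signal of 236% of that in NP liver, and Serpina3m one of 110%. Among the listed hepatocyte markers, Alb (196%) and Rbp4 (136%) also exceeded their NP liver level, and the rest did not. Against low-NP liver, the low-NP spleen level of Serpina1d was higher in both array pairs (-1.53 and -0.54, liver minus spleen), with 1 saturated spot in low-NP spleen. The pairs of Serpina3m lay on either side of 0 (-0.45 and 0.53). Serping1 differed least between the diets among these, with shares of 22.2% and 38.8%. Serpini2 differed by -0.67 ± 0.03 between the NP pools and by -2.13 between the low-NP pools, of which the latter passed 2-fold.

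Clade B had a median difference of -1.62 in the NP pools and -1.05 in the low-NP pools. Serpinb1a differed by -4.21 ± 0.16 and -2.56. Its NP liver level was 5.41% of that in NP spleen, and its low-NP liver level 15.0%. Serpina3g, though of clade A, sat with these genes at -3.64 ± 0.18 and -2.18, with liver shares of 8.03% in NP and 23.1% in low NP. Serpinb6b differed by -3.46 ± 0.14 and -2.25, and Serpinb1c by -2.96 ± 0.13 and -2.14. Serpinb10 had a mean level in NP spleen 4.14-fold the signal in NP liver, where it was not well above background. Its array pairs gave -1.85 and -2.25, liver minus spleen. Serpinh1 differed by -2.22 ± 0.08 in the NP pools and -1.84 in the low-NP pools, and its level in spleen lay between 13.61 and 13.90.

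In order of the NP tissue difference, Serpinc1 (7.58 ± 0.43) came first, followed by Serpina1b (7.34 ± 0.50), Serpinf2 (6.27 and 7.73 in the array pairs), Serpina3k (6.91 ± 0.21) and Serpind1 (6.79 ± 0.04). Neighbours among these 5 do not differ beyond the distance between their arrays. At the other end Serpinb1a (-4.21 ± 0.16) and Serpina3g (-3.64 ± 0.18) were followed by Serpinb6b (-3.46 ± 0.14). Members without a called difference included Serpinb8 (0.04 ± 0.21) and Serpine2 (0.58 ± 0.26). Serpina9 had a difference of 1.45 ± 0.46 and was not called either.

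Position tracked clade closely. By the mm7 positions of their probes 19 of 20 clade A genes lie on chromosome 12 and Serpina7 on the X chromosome, while clade B has 12 genes on chromosome 1 and 12 on chromosome 13. Along the chromosome 12 cluster, Serpina3f (-0.98 ± 0.04) and Serpina3g (-3.64 ± 0.18) lie between Serpina3c (5.92 ± 0.66) and Serpina3k (6.91 ± 0.21). Genes with a higher level in NP spleen are thus flanked by genes with a far higher level in NP liver, although Serpina3f itself did not reach 2-fold. On chromosome 13 the members with the largest differences, Serpinb1a, Serpinb1c and Serpinb6b, follow each other directly among those on the array. Of the clade B genes on chromosome 1 Serpinb10 alone passed 2-fold.

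**Figure D4:**
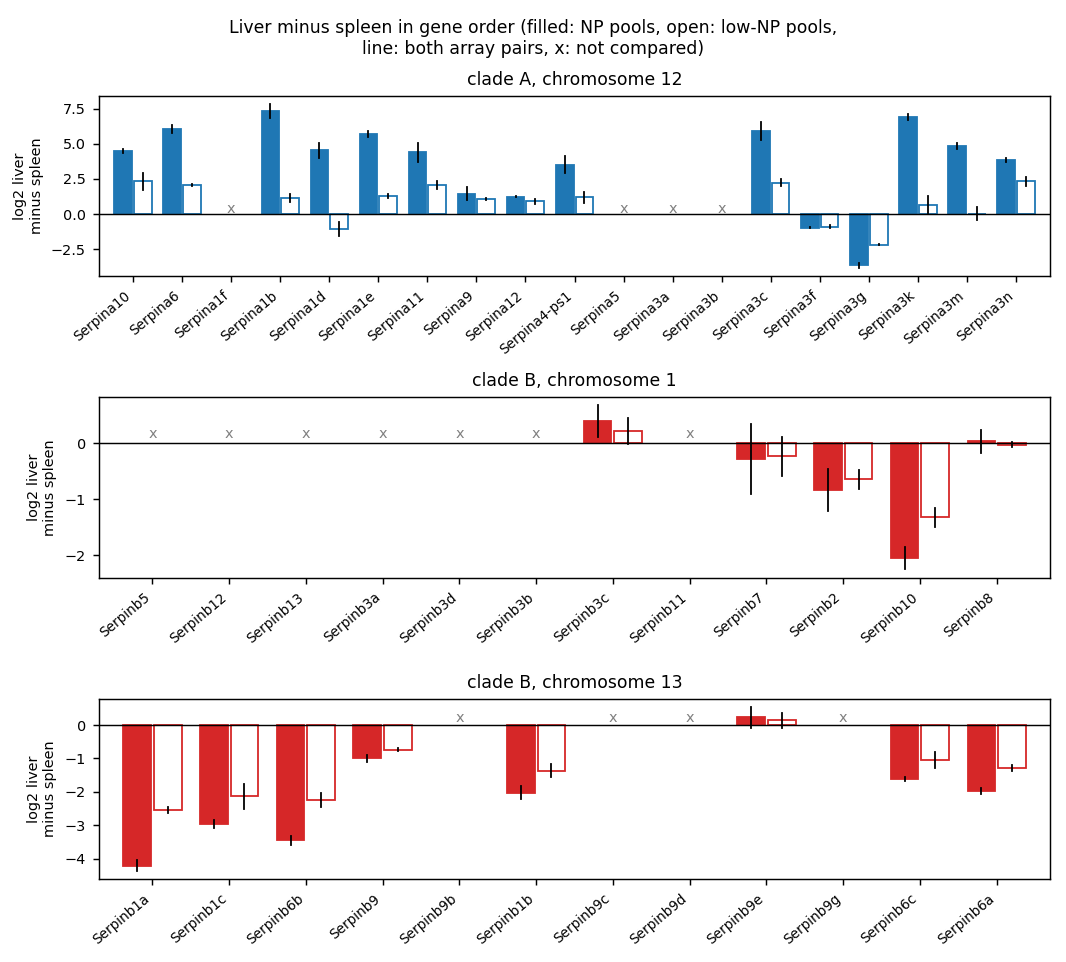
Log2 difference in level, liver minus spleen, for clade A on chromosome 12 (top) and clade B on chromosomes 1 and 13 (middle and bottom), with genes in chromosomal order. Filled bars are NP pools, open bars low-NP pools, black lines join both dye-matched array pairs, and x marks a gene that was not compared. Among the NP bars of clade A only those of Serpina3f and Serpina3g point down, and among the low-NP bars that of Serpina1d does too.

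Lists of proteases and of other inhibitors give the setting in which serpins act. Of 17 coagulation proteases and cofactors 13 were called lower in spleen and 0 in liver, with medians of -3.88 and 0.12. Over all genes 6.33% were called lower in spleen and 3.63% in liver, shares that apply to the later lists too. Of all 2577 genes measured in spleen and at least 2-fold higher in NP liver than NP spleen, 43.2% were called lower in spleen. The NP spleen pool enters both of these comparisons. F2, prothrombin, the target of antithrombin, had -5.35 and -6.23 in spleen. Of 12 complement and contact proteases 9 were lower in spleen and 0 in liver, with a median of -1.23 in spleen. C1s, a target of the C1 inhibitor, narrowly missed with -0.56 and -0.58. Of 8 fibrinolysis genes 3 were lower in spleen, among them Plg, plasminogen, at -2.88 and -5.81, whereas Plat and Plau, the activators, had spleen ratios between -0.20 and 0.04. In liver 1 of 7 was lower, Plaur, the urokinase receptor of leukocytes.

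The proteases of leukocytes and mast cells include targets of clade B serpins. Of 13 measured leukocyte and mast cell proteases in liver 3 were called lower: Gzma (-0.96 and -2.43), Ctss (-0.85 and -1.66) and Casp1 (-0.85 and -1.22). Elane, neutrophil elastase, was not measured in liver and had ratios of 0.02 and 0.21 in spleen. In spleen 1 of 18 was lower, the cathepsin gene Ctsl, at -1.38 and -1.24.

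Protease inhibitors outside the family were counted the same way. Of 21 measured in spleen 11 were lower, with a median of -1.81, among them the plasma inhibitors Mug1, Pzp and Ambp. In liver 2 of 20 were lower, Timp2 and Slpi, the secretory leukocyte protease inhibitor, whose ratios of -2.80 and -3.42 exceeded that of any serpin there. Of 15 carriers, serpin-fold genes and collagen folding genes 5 were lower in spleen. They include Agt, angiotensinogen, which has the serpin fold under another name, at -4.26 and -5.14, and Ttr, transthyretin, the other thyroxine carrier. In liver 1 of the 15 was lower, Col1a2, a chain of type I collagen, while the chaperone Serpinh1 was not called.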

How the data were processed

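Total RNA pooled per diet and tissue was hybridised to 4 Agilent arrays of 1 slide, which leaves no slide effect to test. The deposited scanner files hold, per the file headers, each spot's intensity in both dyes and the log10 of the Cy5 to Cy3 ratio, from Agilent Feature Extraction (release 9.5.3.1 per the submitters' processing notes). The deposited value table holds log10 ratios, and how they were made is not stated in the labels or headers. Against the scanner files it gave low NP over NP in every column (r between -0.998 and -0.990 with NP over low NP).

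In limma 3.58.1 (R 4.3.3), signals were corrected with normexp (offset 50), ratios were normalized by loess within arrays, and levels were scaled between arrays with Aquantile. Control spots and outlier spots (109 to 180 per array) carried no weight. Tables used Python 3.11.15 with pandas 2.3.3. Among genes of several probes, the brightest was used. All 54 members were matched to RefSeq, 49 by accession and 5 by symbol, and 11 listed genes were found under an older array name, with 1 (Spink3) not found.

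Members, lists and motifs were chosen with earlier results of these data known. Values per array are given for called members, measured members of clades C to I (of which 1 is counted but not reported here) and members nearest the threshold, plus some others named after their values were seen. Lists are shown by counts and up to 4 called genes. The rule for calls was checked on simulated dye swaps with independent noise on each array. That check cannot show how calls fare under shifts tied to an array or dye. Alternatives were the background correction, the scaling, the deposited values, the filter on dim probes, the choice of probe, the size of the call and each array left out. The number of arrays limits the precision.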

Additional observations from a re-analysis of the deposited data

Results flagged for a closer look

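For 15 of 37 members measured in both tissues, both spleen arrays moved one way and both liver arrays the other way. How many of all genes do so was not counted. Of all genes, 5258 of 17100 were below 0 and 5000 above 0 on both liver arrays. In spleen these were 6743 and 4326 of 18568. The difference between the tissues was not tested. It is given as the spleen's log2 ratio of NP over low NP minus that of the liver. Members of clades A, F and G were above 0 in liver and below 0 in spleen: Serpinf2 differed by -4.91, Serpina6 by -4.00, Serpina3c by -3.68 and Serpina7 by -2.63. Serpina4-ps1 differed by -2.32, Serpina10 by -2.13, Serpina3n by -1.51 and Serping1 by -0.91. Most of the clade B genes ran the other way, with 1.65 for Serpinb1a, 0.83 for Serpinb1c, 0.73 for Serpinb10 and 0.69 for Serpinb6a. Serpinb1b had 0.66 and Serpinb6c 0.57. The smallest value, -0.17 for Serpinb3c, joins ratios that are themselves near 0. Of these 15 genes, 9 were called in at least one tissue, and the same count over all genes was not made. None was called in both, which follows from their selection, since they moved opposite ways and no member was called higher.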

How the results depend on the processing

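All 18 spleen calls were kept under each alternative that gave them a value (16 of 16 when both channels had to be above background), except that at 2-fold 17 were left, without Serping1. Both liver calls were kept under each run. The liver count of 2 lower genes was 8 without background correction, with the scanner's processed ratios and with the value table; single arrays gave 2 to 13 lower and 0 to 3 higher genes, with medians of -0.340 to 0.0251. The spleen median of -0.25 was -0.64 with processed ratios, -0.63 with the value table and -0.50 to -0.24 on single arrays. At 4-fold, 5 members were higher in NP spleen instead of 10. Serpina12 lost its NP tissue call with no scaling between arrays and with processed signals. Median centring moved the median of all genes from 0.00 to 0.06 in liver and from -0.02 to -0.15 in spleen, and processed ratios moved it to 0.11 and 0.10. All genes called lower in liver rose from 621 to 1333 without background correction, 1755 with processed ratios and 1762 with the value table. The cause was not tested. No paired analysis was possible because the arrays of a tissue were counted as 1 replicate, since the labels do not settle whether they held separate pools, and no test was run. Near copies within Serpina1 and Serpina3 may share signal, which was not tested.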

Other observations

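Different probes of a gene gave different sizes. Of 19 members with several probes, 9 had more than one measured in liver and 11 in spleen. No member's probes differed in their call in liver, and in spleen those of Serpina10 and Serpina4-ps1 did. The brighter probe of Serpinf1 had a spleen ratio of -3.66 and the other -2.49. For Serpinb6a, the brighter probe, at -0.52 in liver, was the only one measured, and the other, not measured in either tissue, lies at another position and gave 0.06.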
